A study of Mus musculus with 4 samples.

Results

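Fatty acid oxidation and the targets of the peroxisome proliferator-activated receptors (PPARs) were followed through 37 genes, chosen by gene symbol, in whole mouse kidney with experimental membranous nephropathy (MN). They comprise the 3 PPAR genes and a coactivator, and genes of fatty acid uptake, activation, mitochondrial import and breakdown in mitochondria and peroxisomes, with several classical PPAR targets. All 37 were among the 25293 genes tested of 34607 genes named on the array, and each gave a signal well above background on all 4 arrays. They were read by 49 probes, 10 genes having more than 1 probe.

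Female BALB/C mice, 6 weeks old at the start, were immunized in both groups with 0.2 mg of cationic bovine serum albumin in complete Freund's adjuvant. The MN group then received this antigen intravenously from 2 weeks later, at 13 mg/kg and 3 times a week over 6 weeks. The control group received only the vehicle in that period, which the labels call saline in one place and PBS in another, so the groups share the first immunization and differ in the later antigen. There were 2 MN and 2 control samples of total kidney RNA, each on 1 array (1-colour Agilent). Whether each sample was a separate animal is not stated in the labels, so the spread behind the p-values is that of these samples and may be technical. Slide 1 held replicate 1 of both groups and slide 2 held replicate 2 of both.

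PPAR-alpha is a nuclear receptor that, when bound by fatty acids, pairs with a retinoid X receptor and switches on genes of fatty acid uptake, activation and oxidation. Long-chain fatty acids are joined to coenzyme A, carried into mitochondria as carnitine esters and shortened stepwise by beta-oxidation, while very long and branched chains are shortened in peroxisomes. The proximal tubule of the kidney relies on this pathway for most of the fuel behind its transport work.

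Most members were slightly lower in MN than in control kidneys, and only a few differed by much. Pdk4, a kinase that blocks pyruvate oxidation, was at 0.326 times the control signal, Angptl4, a secreted inhibitor of lipoprotein lipase, at 0.56 times, and the thioesterase gene Acot2 at 0.626 times. The median difference of the 37 genes was -0.13 on the log2 scale (MN minus control), against -0.05 over all tested genes, and 29 of them (78.4%) differed by less than 0.25. No member passed an adjusted p of 0.05 in limma, in either direction. Adjusted p-values of the members ran between 0.157, for Pdk4, and 0.9999.

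Over all tested genes, 5 were higher (0.0198%) and 0 lower (0%) at that threshold. At an unadjusted p under 0.05, 3 members were lower (Pdk4, Angptl4 and Acot2, 8.11%) and 0 were higher, against 3.49% of all tested genes lower and 3.54% higher. With the slide as a block, 6 members were lower at an unadjusted p under 0.05 (16.2%) and 0 were higher, against 9.05% of all genes lower and 6.29% higher, the further ones being Acsl1, Cpt2 and Ehhadh; their adjusted p-values in that fit were 0.159 or above. The blocked fit called 0 genes of the whole array.

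The direction was the more uniform feature of the members. The mean was lower in MN for 31 of the 37 (83.8%), against 61.4% of all tested genes. Both MN arrays lay below both control arrays for 15 members (40.5%), against 19.9% of all genes, and above them for 1, Acaa1b (2.7%), against 13.2%. Within both slides 25 members were lower in MN (67.6%, against 40.1% of all genes) and 3 were higher (8.11%, against 23.2%). The medians within slide 1 and slide 2 were -0.14 and -0.17, against -0.02 and -0.08 over all tested genes. These shares describe the list, and the genes in it are not independent. In whole-kidney RNA, fewer cells of a type and less RNA per cell cannot be told apart.

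**Figure D1:**
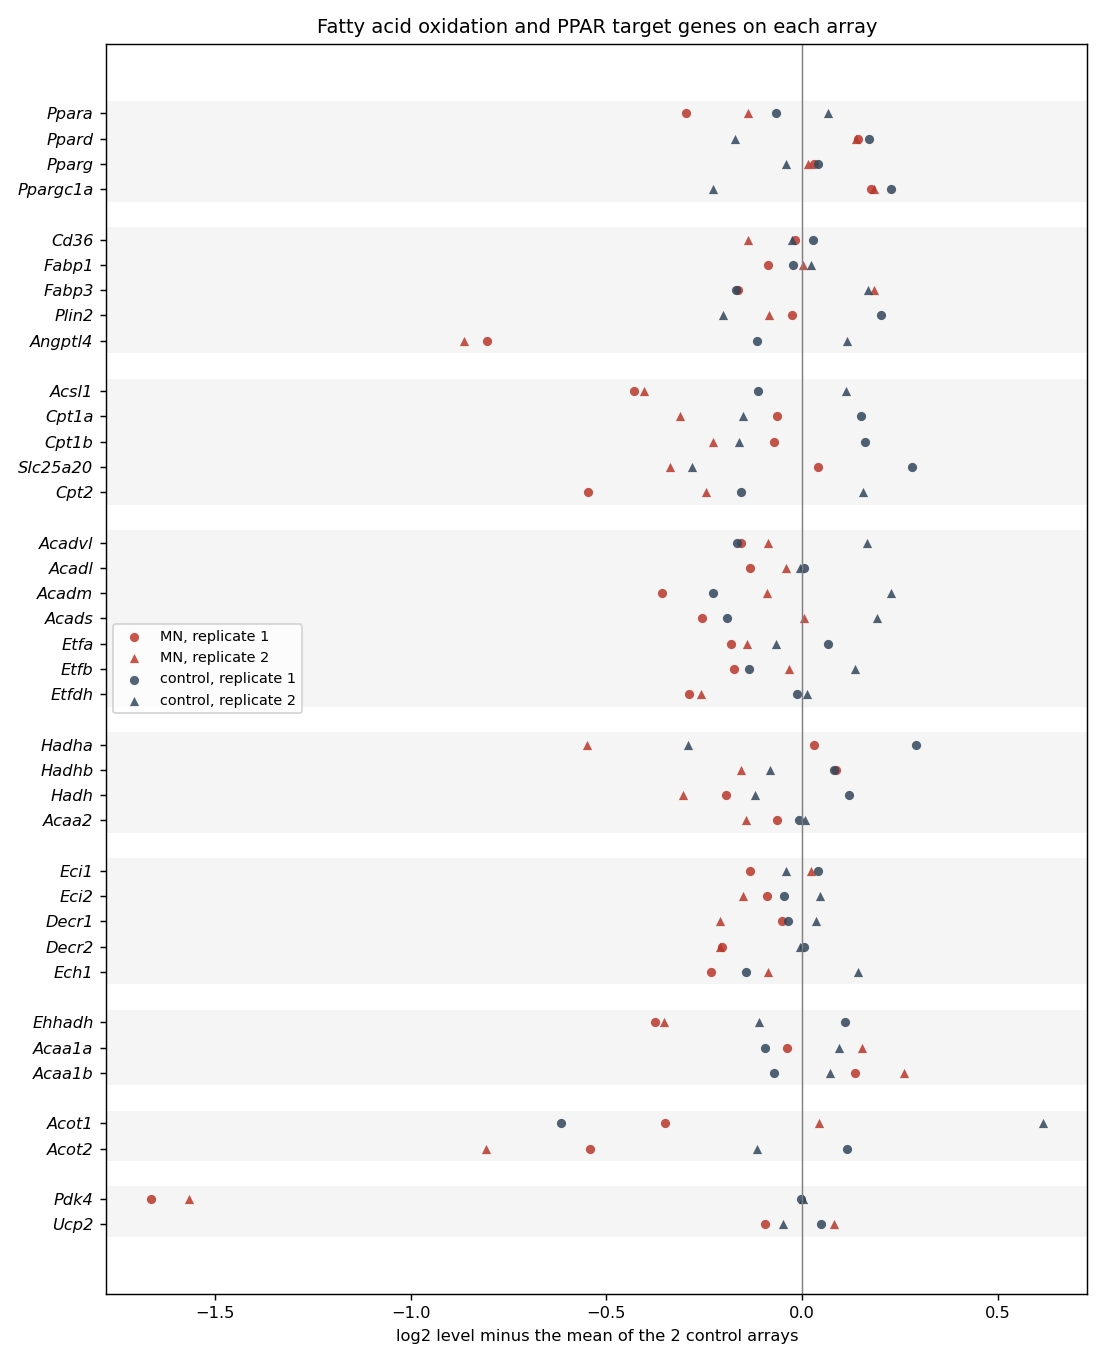
Log2 level of each of the 37 genes on each array (x axis) minus the mean of the 2 control arrays, grouped by role (shaded bands, y axis). Red marks are MN arrays and dark marks control arrays, with circles for replicate 1 and triangles for replicate 2; Pdk4, Angptl4 and Acot2 have both MN arrays well to the left of both control arrays, while for most other genes the 4 arrays lie close together.

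The start regions of 3 members are shown. Pdk4 and Acot2 are among the genes that differed most, although Angptl4 differed more than Acot2 and is not shown. Fabp1 was the only member whose window held the paired element that PPARs bind. The regions are RefSeq windows of 250 bases before and 50 after the annotated start on GRCm38.p6, read 5′ to 3′ on the strand of the gene. Pdk4 is at chr6:5496229-5496528 (minus strand), Acot2 at chr12:83987611-83987910 and Fabp1 at chr6:71199629-71199928 (both plus strand). Capitals mark the CCAAT box in Pdk4 and Acot2, both times on the opposite strand, and in Fabp1 the paired element followed by a lone copy of its unit.
Pdk4: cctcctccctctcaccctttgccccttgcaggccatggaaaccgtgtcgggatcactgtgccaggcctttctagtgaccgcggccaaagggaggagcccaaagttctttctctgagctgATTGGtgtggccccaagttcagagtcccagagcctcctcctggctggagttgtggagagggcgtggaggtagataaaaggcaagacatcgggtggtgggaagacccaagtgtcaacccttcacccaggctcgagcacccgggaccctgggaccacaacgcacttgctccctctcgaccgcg
Acot2: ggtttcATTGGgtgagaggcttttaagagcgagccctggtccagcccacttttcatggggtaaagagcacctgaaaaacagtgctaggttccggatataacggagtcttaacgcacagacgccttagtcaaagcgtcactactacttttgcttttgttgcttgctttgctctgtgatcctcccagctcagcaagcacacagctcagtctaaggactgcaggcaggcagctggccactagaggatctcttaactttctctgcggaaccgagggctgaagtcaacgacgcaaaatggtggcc
Fabp1: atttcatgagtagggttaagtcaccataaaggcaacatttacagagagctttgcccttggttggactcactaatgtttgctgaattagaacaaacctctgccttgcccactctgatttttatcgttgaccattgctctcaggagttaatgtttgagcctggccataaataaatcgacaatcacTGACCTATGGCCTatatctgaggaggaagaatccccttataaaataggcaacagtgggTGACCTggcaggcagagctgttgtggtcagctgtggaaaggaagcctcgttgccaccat
A window was found for 33 members, with 36 windows of the 32851 in the table. The element searched was a direct repeat, 2 copies of AGGNCA in the same orientation with 1 base (N, any letter) between them, on either strand. It occurred in 0.381% of all windows and in 1 member window, that of Fabp1, with its leftmost base at -67 from the start. A single unit was searched only as AGGTCA, which can lie inside that repeat. Other forms of AGGNCA outside the repeat were not searched or marked. AGGTCA occurred in 8 of 36 member windows (22.2%) and 16.3% of all windows. The letters CCAAT, on either strand, occurred in 18 member windows (50.0%) and 37.4% of all windows. A match is a description of letters and not a binding site. Among these motifs Pdk4 and Acot2 had only the CCAAT letters, and Angptl4 was not among the members with any of them. Sequence outside these windows was not searched, and a link between the motifs and the differences was not tested.

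The receptor genes showed small differences in both directions. Levels are log2 signals relative to the 75th percentile of each array, so that 0 is the signal at that percentile, and no probe's level can be set against another's. Ppara, the PPAR form that drives fatty acid oxidation in kidney and liver, had levels of 3.81 and 3.97 in MN kidneys, against 4.04 and 4.18 in control kidneys. Both MN arrays were below both control arrays, with a difference of -0.22 ± 0.15 (SE; adjusted p = 0.982, limma), with -0.23 within slide 1 and -0.20 within slide 2. Its other 2 probes also gave lower means in MN (-0.11 and -0.21).

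Ppard, the broadly expressed form, had levels of 1.38 and 1.37 in MN, against 1.40 and 1.06 in control. The second control array stood below the other 3, and the difference of 0.14 ± 0.18 (SE) turned to -0.03 without it. Pparg, the form best known from fat cells, had levels of -0.67 and -0.69 in MN, against -0.66 and -0.74 in control, a difference of 0.02 ± 0.13 (SE), or -0.017 without control replicate 2. The groups overlapped for both genes. Ppargc1a, a coactivator of PPARs and of mitochondrial genes, had levels of 3.63 and 3.64 in MN, against 3.68 and 3.22 in control. Again the second control array was the low one; the difference was 0.18 ± 0.21 (SE), and -0.05 without that array.

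Among the genes of uptake, binding and storage, Angptl4 had both MN arrays below both control arrays, and the other 4 overlapped. Angptl4 had levels of 4.77 and 4.71 in MN, against 5.46 and 5.69 in control. The MN arrays were close to each other. The difference was -0.84 ± 0.16 (SE; 95% interval -1.27 to -0.40; adjusted p = 0.410, limma), and -0.69 and -0.98 within the slides; it ranked 605 from the most negative of all tested genes. Its probe lies at chr17:33911880-33911939 on mm9. The other members were Cd36, a fatty acid translocase (-0.08), Fabp1 and Fabp3, cytosolic fatty acid binding proteins (-0.04 and 0.01), and Plin2, a coat protein of lipid droplets (-0.05). The arrays of the groups overlapped for these 4, and the second probe of Fabp3 gave -0.04.

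All 5 genes of activation and the carnitine shuttle had lower means in MN, and Acsl1 and Cpt2 were lower on both MN arrays than on both control arrays. Acsl1, which joins long-chain fatty acids to coenzyme A, had levels of 5.30 and 5.32 in MN, against 5.61 and 5.84 in control. That is a difference of -0.42 ± 0.15 (SE; adjusted p = 0.724, limma; 0.271 with the slide as a block), and the second probe gave -0.32. Cpt2, which transfers the acyl group back to coenzyme A inside mitochondria, had levels of 4.37 and 4.67 in MN, against 4.76 and 5.07 in control. The shift was about the same on both slides (-0.39 and -0.40), the mean being -0.40 ± 0.20 (SE; adjusted p = 0.870, limma; 0.25 with the block). A second Cpt2 probe gave -0.44.

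Cpt1a, the liver and kidney form of the rate-limiting carnitine acyltransferase, had levels of 5.37 and 5.12 in MN, against 5.58 and 5.28 in control. The higher MN array exceeded the lower control array, so the groups overlapped, although MN was lower on both slides (-0.21 and -0.16; mean -0.19 ± 0.19, SE). Cpt1b, the muscle form, had levels of 0.67 and 0.52 in MN, against 0.91 and 0.58 in control. The groups overlapped, with a difference of -0.15 ± 0.18 (SE), or 0.013 without control replicate 1. Its probes are also listed for Gm44502, so the RNAs of these overlapping genes cannot be told apart. The carnitine-acylcarnitine carrier gene Slc25a20 differed by -0.15 ± 0.27 (SE), with overlapping groups.

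The acyl-CoA dehydrogenases and the proteins that take up their electrons had lower means in MN for all 7 genes, none of them by much. Differences lay between -0.27 and -0.09, with a median of -0.13. Etfdh, which passes the electrons on to the respiratory chain, had levels of 4.25 and 4.28 in MN, against 4.52 and 4.55 in control. Its replicates were nearly identical in both groups and the MN arrays were both lower (-0.27 ± 0.13, SE; adjusted p = 0.844, limma). Acadm, the medium-chain dehydrogenase, had levels of 6.80 and 7.07 in MN, against 6.93 and 7.39 in control. It differed by -0.22 ± 0.23 (SE) with overlapping groups, and by 0.00 without the second control array.

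The dehydrogenases of very long, long and short chains, Acadvl, Acadl and Acads, differed by -0.12, -0.09 and -0.13. The subunits of the electron transfer flavoprotein, Etfa and Etfb, differed by -0.16 and -0.10. Acadl, Etfa and Etfdh had both MN arrays below both control arrays, and the other 4 genes of this step overlapped. A second probe of Etfa gave -0.29, while the other 2 probes of Etfb gave 0.02 and -0.09.

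The later steps of mitochondrial beta-oxidation had a median difference of -0.18 over 4 genes, all lower in MN. Hadha, the alpha subunit of the trifunctional protein, which carries out hydration and oxidation of long-chain intermediates, had levels of 2.91 and 2.33 in MN, against 3.17 and 2.59 in control. The arrays differed more by slide than by group; the difference was -0.26 within either slide, yet the groups overlapped (-0.26 ± 0.32, SE; adjusted p = 0.9999, limma; 0.358 with the block). Without control replicate 1 it was 0.031, and without MN replicate 2 it was 0.030. Hadh, the hydroxyacyl-CoA dehydrogenase of shorter chains, had levels of 5.42 and 5.31 in MN, against 5.74 and 5.49 in control. It was lower on both MN arrays, with a difference of -0.25 ± 0.16 (SE; adjusted p = 0.962, limma). Hadhb, the beta subunit of the trifunctional protein, differed by -0.03, and the thiolase gene Acaa2 by -0.10 with no overlap.

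The auxiliary enzymes, which prepare unsaturated fatty acids for oxidation, were lower in MN for all 5 genes (median -0.13). Decr2, a peroxisomal dienoyl-CoA reductase, had levels of 4.09 and 4.09 in MN, against 4.30 and 4.29 in control. Its replicates were almost identical and the groups separate, although the difference was small (-0.21 ± 0.13, SE; adjusted p = 0.956, limma). Its mitochondrial counterpart Decr1 differed by -0.13 and the isomerase gene Eci2 by -0.12, both without overlap. The isomerase genes Eci1 and Ech1 differed by -0.05 and -0.16 with overlapping groups.

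The 3 peroxisomal genes did not share a direction. Ehhadh, the peroxisomal bifunctional enzyme and a classical PPAR-alpha target in rodents, had levels of 5.16 and 5.18 in MN, against 5.65 and 5.42 in control. It was lower on both MN arrays, with a difference of -0.36 ± 0.15 (SE; adjusted p = 0.788, limma; 0.320 with the block), and of -0.49 and -0.24 within the slides. The peroxisomal thiolase genes Acaa1a and Acaa1b had means 0.06 and 0.20 above control, on both slides. Acaa1b was the only member with both MN arrays above both control arrays (4.63 and 4.76 in MN, against 4.43 and 4.57 in control; adjusted p = 0.9999, limma). These are close paralogues and each was read by 1 probe, so signal from the partner cannot be separated here.

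The acyl-CoA thioesterase genes Acot1 and Acot2 are neighbouring, closely related PPAR targets whose products release fatty acids from coenzyme A. Acot2, the mitochondrial form, had levels of 0.16 and -0.11 in MN, against 0.82 and 0.59 in control. Both MN arrays were lower, and the shift was about the same on both slides (-0.66 and -0.69). The mean difference was -0.67 ± 0.18 (SE; 95% interval -1.18 to -0.17; adjusted p = 0.560, limma; 0.180 with the block). It ranked 1004 from the most negative.

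Acot1, the cytosolic form, had levels of 4.28 and 4.68 in MN, against 4.02 and 5.25 in control. The control arrays stood 1.23 apart, on either side of the MN arrays, and the slides disagreed in sign (0.27 and -0.57), and the mean difference was -0.15 ± 0.48 (SE; 95% interval -1.48 to 1.17). The difference between Acot1 and Acot2 was not tested. Their probes lie at chr12:85358561-85358620 and chr12:85334071-85334130 on mm9, and cross-hybridization between them was not analysed here.

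Pdk4 had the largest difference of all members. It phosphorylates the pyruvate dehydrogenase complex and so turns cells from glucose to fatty acids as fuel, and it is a PPAR target raised by fasting. Its levels were 1.07 and 1.17 in MN kidneys, against 2.73 and 2.73 in control kidneys. The replicates of either group were within 0.1 of each other, and the groups were far apart. The difference was -1.62 ± 0.14 (SE; 95% interval -1.99 to -1.24), with -1.66 and -1.57 within the slides; it ranked 88 from the most negative of all tested genes and 46 by p. Even so the adjusted p was 0.157 in limma, or 0.159 in the blocked fit. The probe lies at chr6:5433441-5433500 on mm9, and its exon was not analysed here. Ucp2, a carrier of the uncoupling protein family, differed by -0.01 ± 0.15 (SE).

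**Figure D2:**
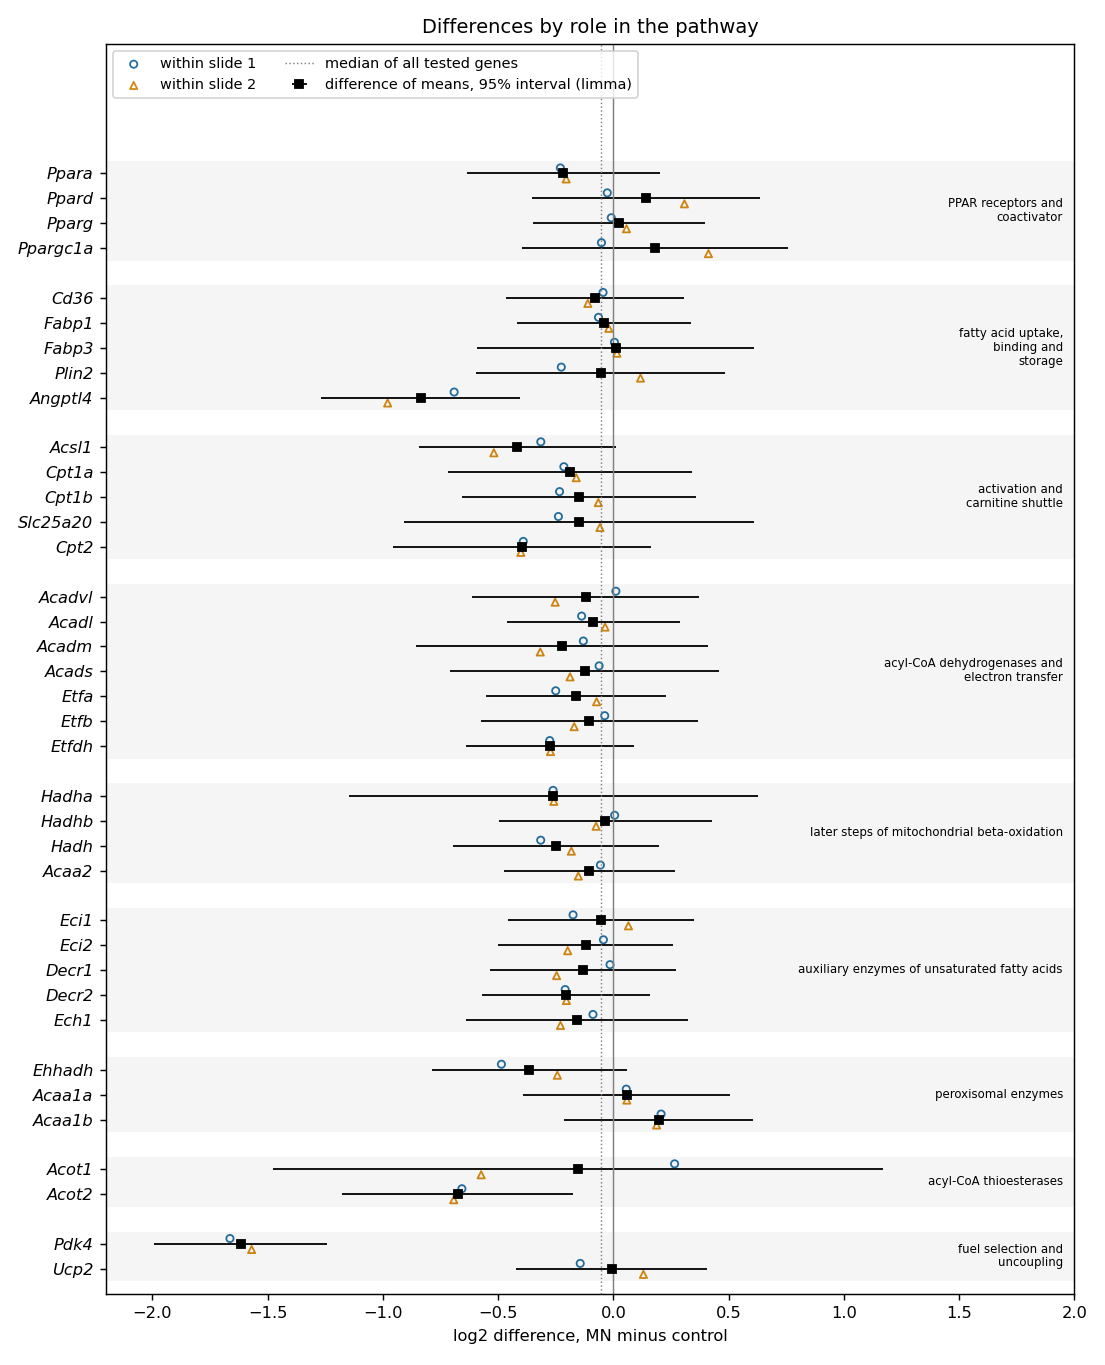
Log2 difference (MN minus control) of each gene (x axis), by role (y axis), with the 95% limma interval as a bar, and the difference within slide 1 (circles) and slide 2 (triangles). Only the intervals of Pdk4, Angptl4 and Acot2 lie wholly below 0, none lies above it, and the dotted line is the median of all tested genes, -0.05.

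The spread between replicates limited what could be told apart in the fit without the slide as a block. The median gap between replicates of the members was 0.125 in MN and 0.227 in control, against a median absolute difference between the groups of 0.149. The difference exceeded both replicate gaps and was negative for 13 members (35.1%, against 13.2% of all tested genes), and it did so and was positive for 1 (2.7%, against 9.85%). The median 95% interval of a member in that fit reached 0.448 to either side, so a difference of the usual size here was not detectable in it with 2 arrays a group. Over the members, deviations from the group means of arrays with the same replicate number had a correlation of 0.76. These gaps and this interval therefore include shifts that arrays of the same number share.

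Other PPAR targets were listed, like the members, with earlier results of these data known, so they are no independent support. Of 25 tested genes 19 were lower in MN (all tested genes 61.4%), with a median of -0.18. In limma 3 were lower at an unadjusted p under 0.05 (all genes 3.49%) and 0 after adjustment. Among them were Plin5, a lipid droplet protein of oxidative cells (-0.62 ± 0.18, SE), and Txnip, an inhibitor of thioredoxin and glucose uptake (-0.59 ± 0.19, SE). Plin5 had levels of 1.37 and 1.02 in MN, against 1.88 and 1.75 in control, with no overlap. The next gene by size was Creb3l3, a transcription factor of fasting metabolism (-0.44 ± 0.22, SE). Fgf21 was not tested, since it was not well above background on both arrays of either group.

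Further enzymes of fatty acid oxidation, listed in the same way, were lower for 28 of 33 tested genes (all tested genes 61.4%), with a median of -0.16. After adjustment 0 passed in limma, and 2 were lower at an unadjusted p under 0.05 (all genes 3.49%). These were the peroxisomal enzymes of branched-chain fatty acids Hacl1 (-0.61 ± 0.14, SE) and Acox2 (-0.59 ± 0.15, SE). Hacl1 had levels of 4.18 and 4.20 in MN, against 4.74 and 4.86 in control, and Acox2 had 4.76 and 4.69 in MN, against 5.22 and 5.40 in control. Both were lower on both MN arrays. Acsm1, a medium-chain acyl-CoA synthetase, differed by -0.36 ± 0.14 (SE) and Crat, a carnitine acetyltransferase, by -0.30 ± 0.19 (SE). Abcd2 and Acsl6 were not tested, for the same reason as Fgf21.

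The partners and co-regulators of PPARs had a median of -0.01, with 12 of 23 genes lower. The differences of largest size were those of the coactivator gene Ppargc1b (-0.46 ± 1.15, SE, with slides far apart), the nuclear receptor gene Esrrb (0.27 ± 0.13, SE), Lpin1 (0.24 ± 0.16, SE) and Crebbp (0.20 ± 0.31, SE). The genes that share control of pyruvate oxidation with Pdk4 had a median of -0.06, with 8 of 12 lower. The largest of these differences, that of the complex subunit gene Dlat, was -0.18 ± 0.16 (SE), followed by Pdp2 (-0.14), Pdhb (-0.13) and Pdk3 (-0.10), all smaller in size than that of Pdk4. No gene of these lists passed an unadjusted p of 0.05. Over all 93 further pathway genes tested, 67 were lower in MN (72.0%, against 61.4% of all tested genes). Both MN arrays lay below both control arrays for 36 (38.7%, against 19.9%) and above them for 8 (8.6%, against 13.2%). In the list of partners and co-regulators 1 of 23 lay below and 5 above (all tested genes 19.9% and 13.2%). That list had no common direction, with 9 genes lower and 9 higher within both slides.

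**Figure D3:**
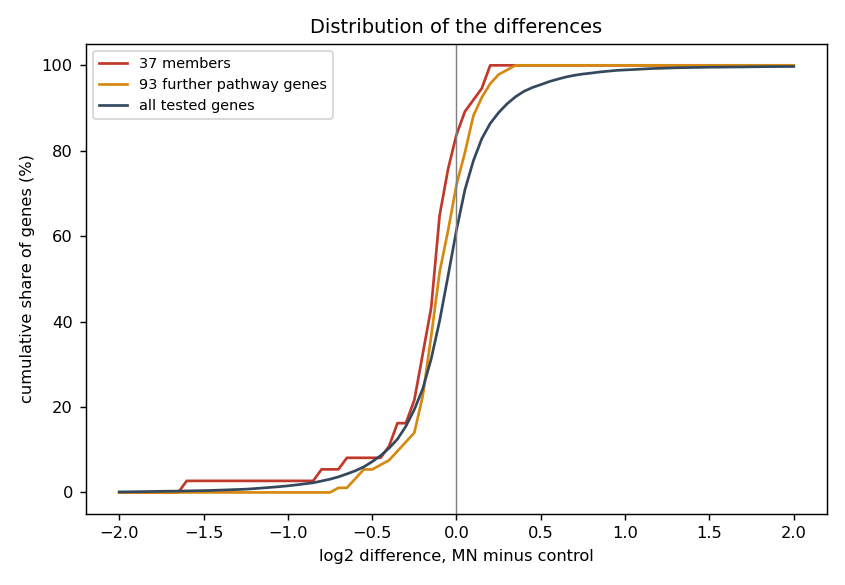
Cumulative share of genes (y axis, %) at or below each log2 difference (x axis, MN minus control), read at steps of 0.05, for the 37 members, the 93 further pathway genes and all tested genes. The curve of the members lies to the left of that of all genes around 0, where 83.8% of members and 61.4% of all genes are below 0, and has no upper tail: the highest member difference is 0.20.

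Markers of the cells that a kidney sample can hold were set beside these values. Proximal tubule markers were well above background on all 4 arrays except Slc7a13, which was so on the control arrays alone. Of the 18, 12 were lower in MN, with a median of -0.06 and a range of -1.04 to 0.23. Without overlap 3 were lower and 1 higher (all tested genes 19.9% and 13.2%). In limma 1 was lower at an unadjusted p under 0.05 (all genes 3.49%). Slc7a13, counted among the 18, entered the test only through the control group, so its value is no independent support for lower tubule markers. The summed signal of the 18, in multiples of the array's 75th percentile, was 1699 and 2256 in MN and 1603 and 2702 in control. For this sum the groups overlapped and the replicates differed more than the groups. The summed signal of the 37 members was 1344 and 1402 in MN, against 1463 and 1599 in control. That of all tested genes was 179594 and 212143 in MN, against 181571 and 232073 in control. Bright probes weigh most in such sums. The 7 dehydrogenase and electron transfer genes gave 458 and 505 of the members' sum in MN, and 490 and 585 in control.

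Markers of other cell types stood higher in MN on part of their lists. Of 8 podocyte markers 6 had both MN arrays above both control arrays (all tested genes 13.2%), and the median difference of the list was 0.63. In limma 5 were higher at an unadjusted p under 0.05 (all genes 3.54%) and 0 after adjustment. Summed signals of the 8 were 72.0 and 68.4 in MN and 35.8 and 32.9 in control. Of 10 white fat markers 5 were higher and 5 lower in MN, without overlap for 5 and 3 of them (all tested genes 13.2% and 19.9%). The 5 higher ones had an unadjusted p under 0.05 in limma (3.54% of all genes higher). After adjustment 2 of them (Cfd and Adipoq) passed in limma, where 5 genes of the whole array were called. The median difference of the 10 genes was 0.15. Their median level was -1.02 and -1.04 in MN, against -3.80 and -3.67 in control, but it depends on which probe lies in the middle and is not a typical difference. Adipoq and Retn were well above background on both MN arrays and on neither control array. These 2 entered the test only through the MN group, so their calls are no independent support for higher fat markers. The summed signals of this list, carried by its brightest probes, were 128 and 126 in MN and 136 and 128 in control. Liver markers (8 of 9 higher, median 0.42) gave 56.5 and 59.2 in MN and 40.8 and 40.4 in control. Macrophage markers (6 of 8 higher, median 0.25) gave 28.4 and 30.5 in MN and 27.8 and 28.5 in control. Markers of the loop of Henle, distal tubule and collecting duct were lower for 6 of 12 genes, of endothelium for 4 of 8, of brown fat for 2 of 3 and of skeletal and cardiac muscle for 5 of 5 (median -0.14). The slides disagreed for muscle, with 1 of 5 lower within slide 1 (median 0.15) and 5 of 5 within slide 2 (median -0.29). The part of these cell types in the differences of the fatty acid oxidation genes was not tested.

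**Figure D4:**
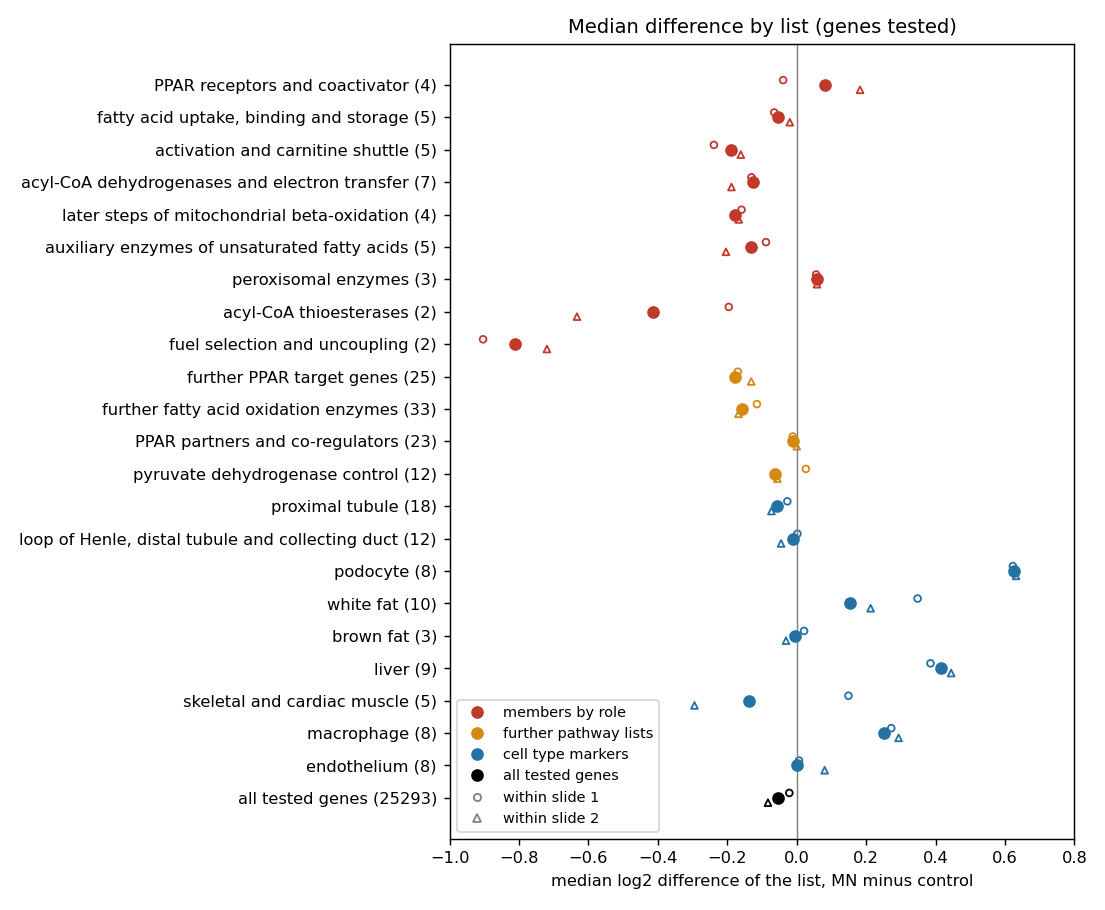
Median log2 difference (MN minus control, x axis) of each group of members, further pathway list and cell type marker list (y axis, number of genes tested in brackets), over all 4 arrays (filled) and within slide 1 (open circles) and slide 2 (open triangles). The groups of carnitine shuttle and mitochondrial enzymes lie between -0.19 and -0.13 on the 4 arrays, the proximal tubule markers at -0.06 and the podocyte markers at 0.63.

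The arrays differed in brightness and in detection. The 75th percentile signal, by which each array was scaled, was 767 and 1204 on the MN arrays and 737 and 818 on the control arrays, the second MN array being the brightest. The share of non-control spots well above background was 64.0% and 63.1% on the MN arrays and 65.9% and 79.5% on the control arrays, the second control array being the highest. Without the second MN array the median of the members was -0.13, against -0.05 over all tested genes, and 30 of 37 were lower. Without the second control array the median of the members was -0.10, against -0.01 over all tested genes, 29 of 37 were lower, and 25 lay below the remaining control array on both MN arrays (all genes 37.8%). Differences of Pdk4, Angptl4 and Acot2 kept their sign under all 13 alternative settings, which included leaving out each array, and ranged over -1.66 to -1.57, -0.95 to -0.72 and -0.81 to -0.54.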

How the data were processed

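Spot intensity on a linear scale was read from the deposited scanner files of the 4 arrays (Agilent Feature Extraction 10.5.1.1, background-subtracted, probe positions on mm9, per the file headers). Control and non-uniform spots were left out, spots of a probe were averaged, and values were log2 of processed signal minus the array's 75th percentile. A probe entered if well above background on both arrays of a group; the brightest probe stood for a gene. The test was limma 3.58.1 (R 4.3.3), two-sided, with 2 residual and 1.99 prior degrees of freedom; p-values were adjusted by Benjamini-Hochberg across all 25293 genes, at 0.05. The members and all lists were chosen with earlier results of these data known. Values on every array were given for the 3 PPAR genes, Ppargc1a, Pdk4, Angptl4, Cpt1a, Cpt1b and the 12 members with the largest absolute difference, and up to 4 genes of each further list were named; Acaa1b and some others were given per array after their values were seen. A gene of the further lists is not reported here.

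Names followed the accession, symbol or synonym in RefSeq's GRCm38.p6 table (28026, 3418 and 295 probes) and otherwise the file (23942). Slide, scan and replicate number coincide; the deviations from the group means of arrays with the same number had a correlation of 0.63 over genes. The deposited value table holds log2 values relative to the control mean, with column medians of -0.03 and -0.04 in MN and 0.03 and -0.03 in control (processing not given in the sources used here). Against the scanner files its replicates 1 and 2 were exchanged in both groups, and which order is right is unknown; it served only as an alternative. In 20 simulations of 25293 genes per size, the test recovered 0% of the changed genes at a log2 change of 1, 13.2% at 2 and 75.5% at 4. False calls at these sizes were 0, 0.7 and 5.5 a run, and the share of false unadjusted p-values was 5.69% to 5.77%. Tables were made with pandas 2.3.3 and numpy 2.4.6, and figures with matplotlib 3.10.9 (Python 3.11.15). The 13 alternatives changed background correction, scaling, filter, probe rule or variance model, used the value table, added the slide as a block, or left out an array.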

Additional observations from a re-analysis of the deposited data

How the results depend on the processing

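No member passed the adjusted threshold in limma under any of the 13 alternatives, and the smallest adjusted p was 0.064, for Pdk4. The number of genes called over the whole array, 5, was 15 with normexp background correction, 17 with quantile normalization, 11 with scaling on the median of detected probes, 16 with an intensity trend, and 0 without a filter, with a filter on all 4 arrays, with the replicate block (slide), and with any array left out (0 to 0). Members lower at an unadjusted p under 0.05 numbered 5 with the mean of probes and 6 with the replicate block, and 2 to 3 with an array left out. The replicate block changed no adjusted call of a member. The median of the members was -0.086 with quantile normalization (all genes -0.024), and -0.14 to -0.097 with an array left out. Members with a lower mean numbered 26 to 32 over the alternatives. Members with both MN arrays below the control arrays numbered 21 to 25 with an array left out, where fewer arrays have to separate and the share of all tested genes is 36% to 46.6%. In the other direction there were 0 with normexp (all genes 10.9%), 2 with quantile normalization (14.4%) and 2 to 5 with an array left out (24.1% to 33.0%). Signs turned only with an array left out, where differences ran between -0.029 and 0.31 for Ppard, -0.017 and 0.065 for Pparg, -0.047 and 0.41 for Ppargc1a, and -0.45 and 0.0035 for Acadm (the value of the other sign in each being that without control replicate 2), and between -0.31 and 0.013 for Cpt1b and -0.55 and 0.031 for Hadha (the higher value being that without control replicate 1; Hadha was 0.030 without MN replicate 2). This holds for the members whose values were given on every array by rule; the cause was not tested. The number of arrays limits the precision.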
